A study of Mus musculus with 8 samples.

Results

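The genes described here code for the subunits of the transcription factor NF-κB and for the inhibitors that hold it back. The set consists of Rela, Relb, Rel, Nfkb1 and Nfkb2 (subunits), Nfkbia, Nfkbib and Nfkbie (classical inhibitors), Nfkbiz (an inhibitor-like nuclear protein) and Tnfaip3 (the ubiquitin-editing enzyme A20). A probe set, a group of short probes for 1 transcript, was a member if the annotation lists 1 of these symbols for it and no other. The rule gave 19 of the 45101 probe sets of the array and 9 of 18194 genes. Nfkb1 was not analysed here.

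NF-κB is a dimer of Rel proteins that waits in the cytoplasm, bound by an inhibitor of the IκB family. Signals from cytokine and Toll-like receptors, or from broken DNA through ATM and the IKK subunit NEMO, activate the IKK kinases, which mark the inhibitor for destruction and free the dimer to enter the nucleus. In an alternative route the kinase NIK lets the Nfkb2 product mature and pair with RelB. Dimers bind κB sites before their target genes, and these targets are known to include several of the inhibitors and subunits themselves. Where the target is an inhibitor, the arrangement is known as negative feedback. In glia and in senescent cells the factor is best known for driving cytokines and chemokines.

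RNA was measured on Affymetrix mouse genome arrays in neural stem cells (NSCs) that had been obtained from mouse embryonic stem (ES) cells. The cells of both groups grew in Euromed-N with N2, EGF and FGF2. One group (non-irr) received no irradiation, and the other (irr) was exposed to 10 Gy of X-rays and taken at day 7, with 4 arrays per group. The methods name E14Tg2a as the ES line behind most of the NSCs, but the labels do not say which line was on these arrays, so the groups stand for a cultured stem cell of unstated clone and not for a tissue.

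Values are log2 expression values as normalized by the authors, and a difference of 1 is a 2-fold change. Of all probe sets, 21919 had an intensity over 100 (6.64 on the log2 scale) on at least 1 array and were tested with limma, and those at an adjusted p under 0.05 are called higher or lower. The array medians lay between 6.22 and 6.24. Over these probe sets, a pair of arrays correlated at 0.9912 to 0.9972 within a group and at 0.9119 to 0.9231 between groups. In a principal component analysis 92% of the variance fell on the component that split the groups, and 3.7% on one along which irr replicates 1 and 2 differed from the other irr arrays. All 8 neural stem cell markers passed the filter (Sox2, Nes, Pax6, Vim, Msi1, Fabp7, Slc1a3 and Hes1), and their summed linear level was 48700 to 51100 on non-irr and 54700 to 58100 on irr arrays. That sum is weighted to the brightest genes, Fabp7 and Vim, which were both higher. By gene, 4 markers were higher, 2 were lower (Pax6 by 0.54 and Msi1 by 0.17) and 2 were not called. Nes was not called at its brightest probe set, but its probe sets ranged down to -0.95. The pluripotency genes Pou5f1, Nanog and Zfp42 lay below the filter. Dppa5a, the other gene of that list, passed it, with means of 6.91 on non-irr and 6.96 on irr arrays and no call. As the RNA came from whole cultures, fewer cells of a type and less RNA per cell cannot be told apart. The methods describe the irr experiment as performed in quadruplicate, yet the labels do not say whether the arrays of a group came from separate cultures, so the p-values measure the spread between these arrays, which may be partly technical.

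The sequence before the start of a member gene is where several κB sites of the feedback loop are known to lie. In the RefSeq promoter table (GRCm38.p6), 7 of the member genes had an entry, with 10 start sites in all. The 10-base κB consensus was searched for on both strands in the 250 bases before each start, with overlapping matches counted singly. It was present in 5 of the 7 genes and in 7 of the 10 entries, while 7.25% of the 32851 entries and 8.23% of the 27025 genes of the whole table held it. A match describes the letters and is not evidence of binding. The 4 windows below belong to members whose RNA is described in detail further on, namely 3 that were higher in irr NSCs and hold the consensus (in capitals), and Nfkbib, the member that was lower, in which these letters were not found. They run 5′ to 3′ on the strand of the gene and end at the base before the start.
Nfkb2, start 1 (chr19:46304487-46304736, plus strand): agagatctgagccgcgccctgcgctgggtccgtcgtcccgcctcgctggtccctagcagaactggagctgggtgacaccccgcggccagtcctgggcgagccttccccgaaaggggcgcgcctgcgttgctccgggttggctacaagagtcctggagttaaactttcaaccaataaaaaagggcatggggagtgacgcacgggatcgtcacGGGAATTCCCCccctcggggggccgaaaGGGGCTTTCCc
Nfkbia (chr12:55492648-55492897, minus strand): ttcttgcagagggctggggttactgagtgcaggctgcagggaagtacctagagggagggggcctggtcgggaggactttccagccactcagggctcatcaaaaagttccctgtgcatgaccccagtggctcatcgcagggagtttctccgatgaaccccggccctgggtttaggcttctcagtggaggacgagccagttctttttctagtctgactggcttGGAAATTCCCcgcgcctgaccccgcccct
Tnfaip3, start 1 (chr10:19015411-19015660, minus strand): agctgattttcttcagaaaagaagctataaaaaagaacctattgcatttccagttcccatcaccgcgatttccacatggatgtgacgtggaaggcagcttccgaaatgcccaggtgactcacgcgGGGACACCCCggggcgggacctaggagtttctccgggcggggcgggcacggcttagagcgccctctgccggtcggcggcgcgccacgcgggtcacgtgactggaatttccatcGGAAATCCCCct
Nfkbib (chr7:28766645-28766894, minus strand): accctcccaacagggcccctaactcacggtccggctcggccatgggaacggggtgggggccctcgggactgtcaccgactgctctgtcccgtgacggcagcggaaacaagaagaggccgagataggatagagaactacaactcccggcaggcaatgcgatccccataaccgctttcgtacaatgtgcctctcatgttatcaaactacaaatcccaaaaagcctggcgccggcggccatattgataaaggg

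In Nfkb2 start 1 the capitals cover 3 matches, of which the first 2 overlap and span bases 39 to 29 before the start, and the third lies at bases 11 to 2. The Nfkbia match lies at bases 29 to 20. Tnfaip3 start 1 has matches at bases 125 to 116 and 12 to 3. The other Nfkb2 starts have 1 match each, at bases 236 to 227 and 225 to 216, Nfkbie has 1 at bases 106 to 97, and Rel has a pair that overlap at bases 92 to 82. The windows of Rela, which was also higher in irr NSCs, and of Tnfaip3 start 2 held none. Rel, with its pair of matches, lay under the filter on all arrays and was not tested. The printed windows were picked by call and match, and whether the matches bear on the RNA levels was not tested. Relb and Nfkbiz were not among the promoter entries.

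**Figure D1:**
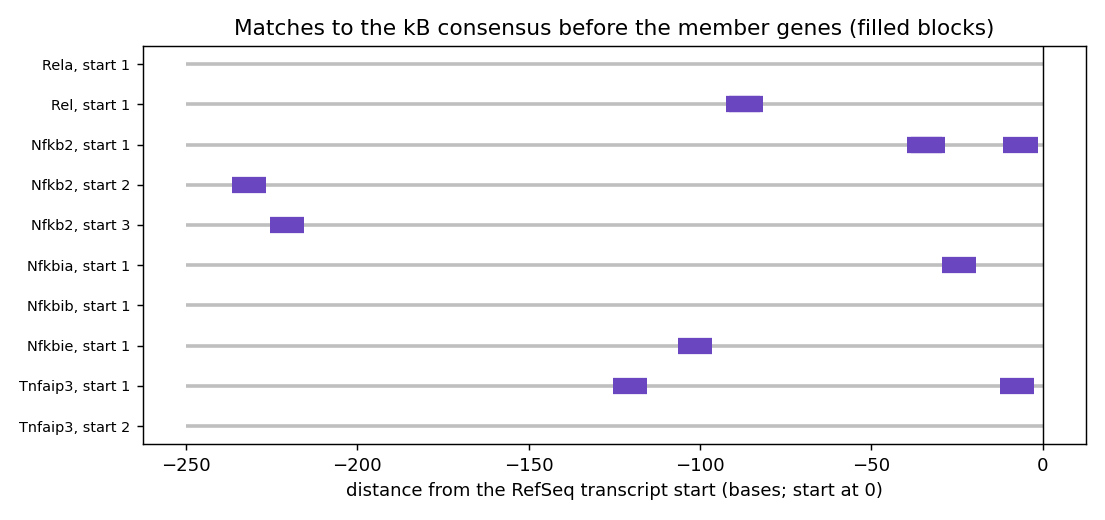
Positions of matches to the 10-base κB consensus (filled blocks) in the 250 bases before each RefSeq transcript start of the member genes, with the distance from the start in bases on the horizontal axis and 1 row per start. The 7 rows with a block belong to Rel, Nfkb2, Nfkbia, Nfkbie and Tnfaip3, and the rows of Rela, Nfkbib and Tnfaip3 start 2 are empty.

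Most measured subunits and inhibitors of NF-κB were moderately higher in irr NSCs. Of the 19 member probe sets, 14 passed the filter and were tested, from 8 genes, and 11 of them were higher, 1 was lower and 2 were not called. Thus 85.7% of the tested members were called, against 75.1% of all tested probe sets, and 78.6% were higher, against 38% (8339 of 21919), while 37.1% of all were lower. By the brightest probe set of each gene, 7 of 8 genes were higher (87.5%, against 40.2% of 11372 genes) and 1 was lower (against 37.1%). No member changed 2-fold, as did 8.47% (higher) and 5.98% (lower) of all tested probe sets and 8.9% and 6.17% of genes. The median log2 difference of the tested members was 0.40, beside -0.0083 over all, but the median size of the difference regardless of its sign was 0.40, beside 0.38 over all. These shares and medians describe the members and carry no test of the set. The groups did not overlap for 12 of the 14, against 69.6% of all tested probe sets.

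The direction of the called members did not depend on the scaling. The reference genes used below were themselves not constant. Of 8 tested, 2 were higher and 3 lower (62.5% called, against 77.3% of all genes), from -0.66 for Pgk1 to 0.22 for Gusb. Centring the arrays on reference genes moved the median of all tested probe sets to 0.10, raised the share of higher among all calls from 50.6% to 61.8%, and gave a member median of 0.51, with the same 11 member probe sets among the higher ones and Nfkbib still lower. Median centring and a further quantile normalization moved the member median the other way, to 0.35 and 0.36, with 46.5% and 47.1% of all calls higher and again the same 11 members.

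**Figure D2:**
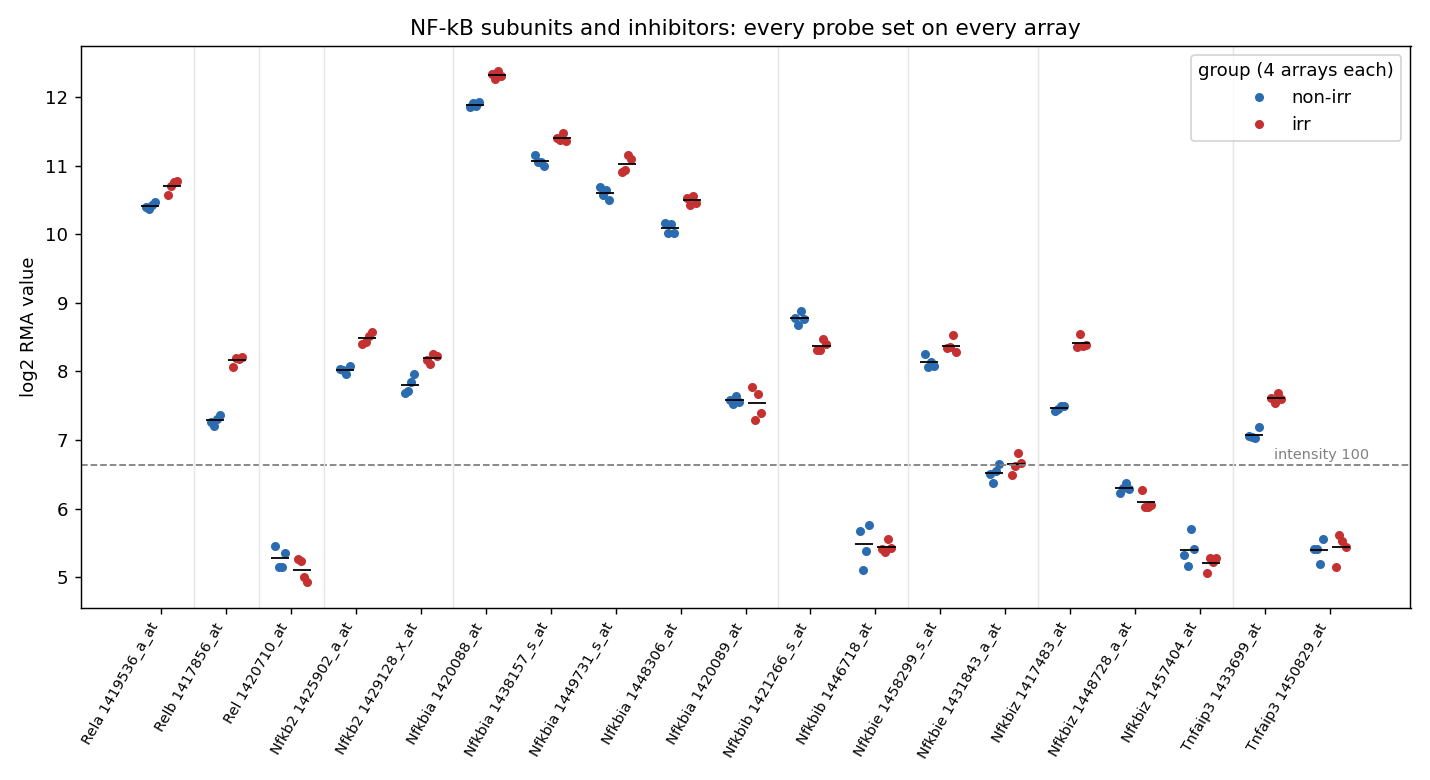
Log2 expression value (vertical axis) of all 19 member probe sets on each of the 8 arrays (points, non-irr in blue and irr in red) with group means (bars), and the intensity of 100 as a dashed line. Relb and Nfkbiz 1417483_at show the widest gaps between groups, at 0.88 and 0.94, Nfkbib 1421266_s_at is the probe set called lower in irr, and 5 probe sets lie wholly under the line.

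Among the subunits that carry their own transactivation domain, Relb changed most. Relb (1417856_at), the partner of the Nfkb2 product in the alternative route, read 7.27, 7.21, 7.31 and 7.37 on non-irr and 8.06, 8.20, 8.18 and 8.21 on irr arrays. All irr arrays lay above all non-irr arrays, with a gap wider than the spread within either group. The log2 difference was 0.88 ± 0.05 (SE), a 1.83-fold higher level (95% interval of the log2 difference 0.75 to 1.00, adjusted p = 3e-07 in limma), and 18.6% of all tested probe sets changed by more.

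Rela (1419536_a_at), the transactivating subunit of the classical dimer, read 10.40, 10.37, 10.42 and 10.47 on non-irr and 10.57, 10.70, 10.76 and 10.77 on irr arrays. The groups did not overlap, and irr replicate 1 was the lowest of its group. The difference was 0.28 ± 0.06, or 1.21-fold (interval 0.16 to 0.41, adjusted p = 0.0011), smaller than that of 60.3% of tested probe sets.

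Rel (1420710_at), the subunit best known from lymphoid cells, stayed under the intensity of 100 on all arrays. It read 5.15 to 5.46 on non-irr and 4.93 to 5.27 on irr arrays, with overlapping groups, and it was not tested.

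Nfkb2, which codes for the p100 precursor that acts as an inhibitor until it is cut to the p52 subunit, was read by 2 probe sets that gave like values. At 1425902_a_at it read 8.03, 8.02, 7.97 and 8.08 on non-irr and 8.40, 8.43, 8.52 and 8.58 on irr arrays, without overlap. This was a difference of 0.46 ± 0.05 (1.37-fold, adjusted p = 2.7e-05). At 1429128_x_at, whose suffix marks probes that can also match other transcripts, it read 7.69, 7.72, 7.85 and 7.96 on non-irr and 8.17, 8.11, 8.26 and 8.23 on irr arrays. The groups did not overlap there either, with a difference of 0.39 ± 0.07 (1.31-fold, adjusted p = 5e-04). The RNA of both Relb and Nfkb2 was thus higher in irr NSCs, while the cut p52 subunit was not measured.

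Nfkbia codes for IκBα, the inhibitor that is resynthesized quickest after NF-κB activation. Of its 5 probe sets, 4 were higher in irr NSCs. Its brightest probe set (1420088_at) read 11.85, 11.91, 11.86 and 11.92 on non-irr and 12.34, 12.26, 12.37 and 12.31 on irr arrays. The irr arrays all lay above the non-irr arrays, and the spread within each group was small. The difference was 0.43 ± 0.04 (1.35-fold, interval 0.33 to 0.53, adjusted p = 1.1e-05). At 1438157_s_at, 1449731_s_at and 1448306_at the differences were 0.34, 0.43 and 0.41, with adjusted p from 7.6e-05 to 0.00028 and no overlap of the groups. The dimmest probe set (1420089_at) read 7.59, 7.52, 7.65 and 7.56 on non-irr and 7.77, 7.30, 7.67 and 7.40 on irr arrays. Here the irr arrays lay both above and below the non-irr arrays, with an SD of 0.22 against 0.06, and the difference of -0.05 ± 0.10 was not called (interval -0.26 to 0.17, adjusted p = 0.69). Its interval ends short of the difference seen at each of the other Nfkbia probe sets, so the probe sets of this gene disagreed. Centring on reference genes turned this small difference to 0.07, also without a call.

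Nfkbib, which codes for IκBβ, an inhibitor that is resynthesized more slowly, was the only member called lower. At 1421266_s_at it read 8.78, 8.68, 8.88 and 8.76 on non-irr and 8.31, 8.31, 8.47 and 8.40 on irr arrays. All irr arrays lay below all non-irr arrays. The level fell by 0.40 ± 0.06 on the log2 scale, or 1.32-fold (interval -0.53 to -0.27, adjusted p = 0.00015). This call rests on 1 probe set of a kind (suffix _s_) that can match more than 1 transcript, since the other (1446718_at) lay at 5.11 to 5.76 on all arrays, under the filter.

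Nfkbie, which codes for IκBε, was higher at 1 of 2 probe sets. At 1458299_s_at it read 8.25, 8.07, 8.14 and 8.08 on non-irr and 8.34, 8.35, 8.53 and 8.29 on irr arrays. The groups were separate by a narrow margin, since non-irr replicate 1 lay close under irr replicate 4. The difference was 0.24 ± 0.07 (1.18-fold, adjusted p = 0.0067). At 1431843_a_at, where 1 non-irr and 2 irr arrays exceeded the intensity of 100, it read 6.51, 6.37, 6.55 and 6.65 on non-irr and 6.49, 6.63, 6.81 and 6.67 on irr arrays. These groups overlapped, and the difference of 0.13 ± 0.08 was not called (interval -0.05 to 0.31, adjusted p = 0.16).

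Nfkbiz, which codes for IκBζ, a nuclear protein that works with NF-κB at a part of its secondary targets such as Lcn2, showed the largest change among the members. At 1417483_at it read 7.43, 7.45, 7.50 and 7.49 on non-irr and 8.36, 8.54, 8.37 and 8.38 on irr arrays. The groups were far apart, and irr replicate 2 stood above the other irr arrays, which were nearly equal. The difference was 0.94 ± 0.05 (1.92-fold, interval 0.83 to 1.06, adjusted p = 1.3e-07), and 16.3% of tested probe sets changed by more. Its other probe sets stayed under the filter. At 1448728_a_at it read 6.23 to 6.38 on non-irr and 6.02 to 6.27 on irr arrays, and at 1457404_at 5.17 to 5.71 and 5.06 to 5.29. Both dim probe sets differed in the other direction, by -0.21 and -0.19, with overlapping groups. Without the filter the first of these would be called lower (adjusted p = 0.032), so the higher level of Nfkbiz also rests on a single probe set.

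Tnfaip3 codes for A20, which removes and rebuilds ubiquitin chains on signaling proteins above IKK. At 1433699_at it read 7.06, 7.04, 7.03 and 7.19 on non-irr and 7.61, 7.54, 7.68 and 7.60 on irr arrays. All irr arrays lay above the non-irr arrays, of which replicate 4 was the highest. The difference was 0.52 ± 0.05 (1.44-fold, interval 0.41 to 0.64, adjusted p = 9.2e-06). The other probe set (1450829_at) lay at 5.15 to 5.62 on all arrays, under the filter, and differed by 0.04.

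**Figure D3:**
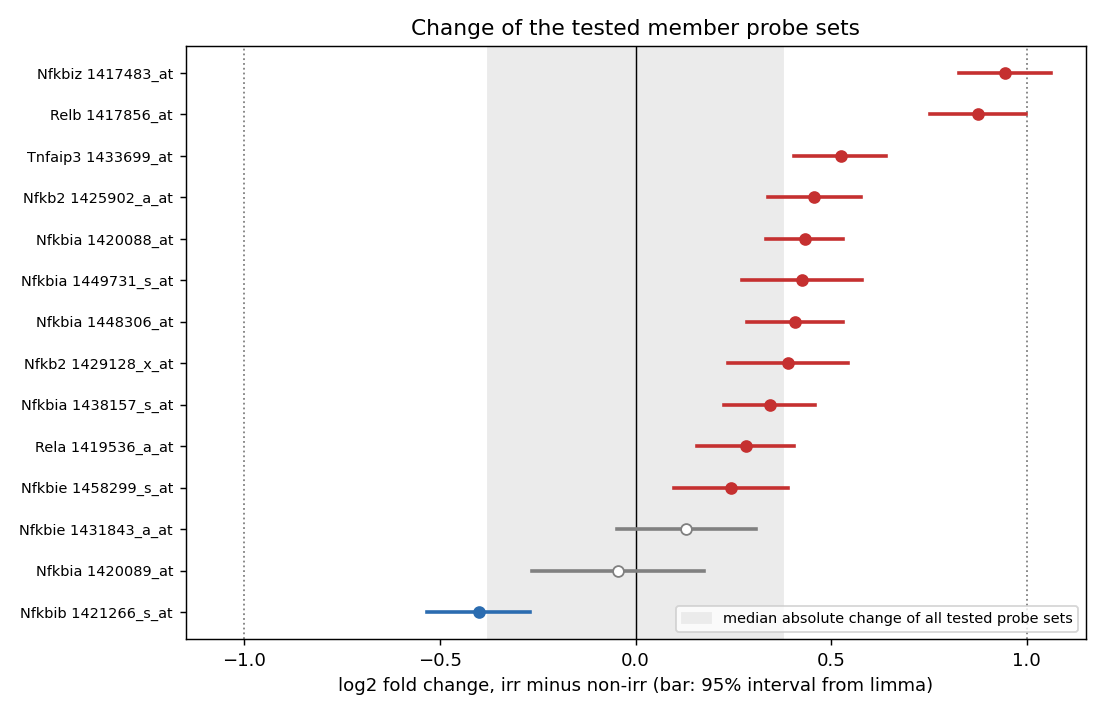
Log2 difference, irr minus non-irr (horizontal axis, points), with its 95% interval from limma (bars) for the 14 tested member probe sets, with higher in red, lower in blue and not called in grey. The grey band is the median size of change of all tested probe sets (0.38), and the points run from -0.40 for Nfkbib to 0.94 for Nfkbiz, none of them at the dotted lines that mark 2-fold.

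Some other measures moved with the groups. The gap between the 3′ and 5′ control probe sets of actin, a sign of RNA integrity, was 0.26 ± 0.03 on non-irr and 0.51 ± 0.07 on irr arrays (SD, n = 4 each, exact permutation test over the arrays, two-sided p = 0.029, the smallest this design allows). For Gapdh the gap was -0.08 and -0.07 (exact permutation p = 0.71). Of 12 microglia and macrophage markers 3 passed the filter, and 2 of them were higher, against 40.2% of all genes. These were Cd68, with group means of 5.46 and 8.10, and P2ry12, with 7.32 and 7.84, while Csf1r was not called (-0.05). Cd68 passed through the irr arrays alone, and of the 2 markers that passed in both groups 1 was higher. The other 9, among them Ptprc, Aif1, Itgam, Cx3cr1 and Tyrobp, lay under the filter on all arrays. The summed linear level of the list was 550 to 618 on non-irr and 804 to 890 on irr arrays. That sum is weighted to the brightest genes, on irr arrays Cd68 and P2ry12. Of 8 mesenchymal markers 6 were tested and 5 of these were higher, against 40.2% of all genes. As 2 of the 6 passed through the irr arrays alone, the 4 that passed in both groups are given too, of which 3 were higher. The summed level of the list was 2650 to 2780 on non-irr and 6810 to 7290 on irr arrays, while Col1a1 and Col1a2 lay under the filter. This sum too is weighted to the brightest genes, Thy1 and Col3a1, which were both higher. Of 6 endothelial markers 1 was tested and was lower, with sums of 297 to 348 and 287 to 307. The part of these in the member values was not tested.

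The other genes of the pathway were taken from 9 lists, in which a gene is represented by its brightest probe set. Of 140 genes, 80 were tested, 43 lay under the filter and 17 were not analysed here. Of the tested genes 46 were higher and 15 lower, with 13 and 1 of these at 2-fold or more, and the median difference was 0.24 beside 0.0069 over all genes. Since 8 of the 80 passed the filter through the irr arrays alone and 1 through the non-irr arrays alone, which favors genes that differ, the values of the 71 genes that passed in both groups are given too, of which 38 were higher and 15 lower, with a median of 0.21. Over all genes 77.3% were called (40.2% higher and 37.1% lower), and among the 80 it was 76.2%. The counts of each list below are to be set beside these shares. The share called was 66.7% for the IKK list, 88.9% for receptors, 60% for adaptors and ubiquitin ligases and 81.8% for negative regulators. It was 100% for the DNA damage route, 87.5% for RelA cofactors and 77.8% for target genes.

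**Figure D4:**
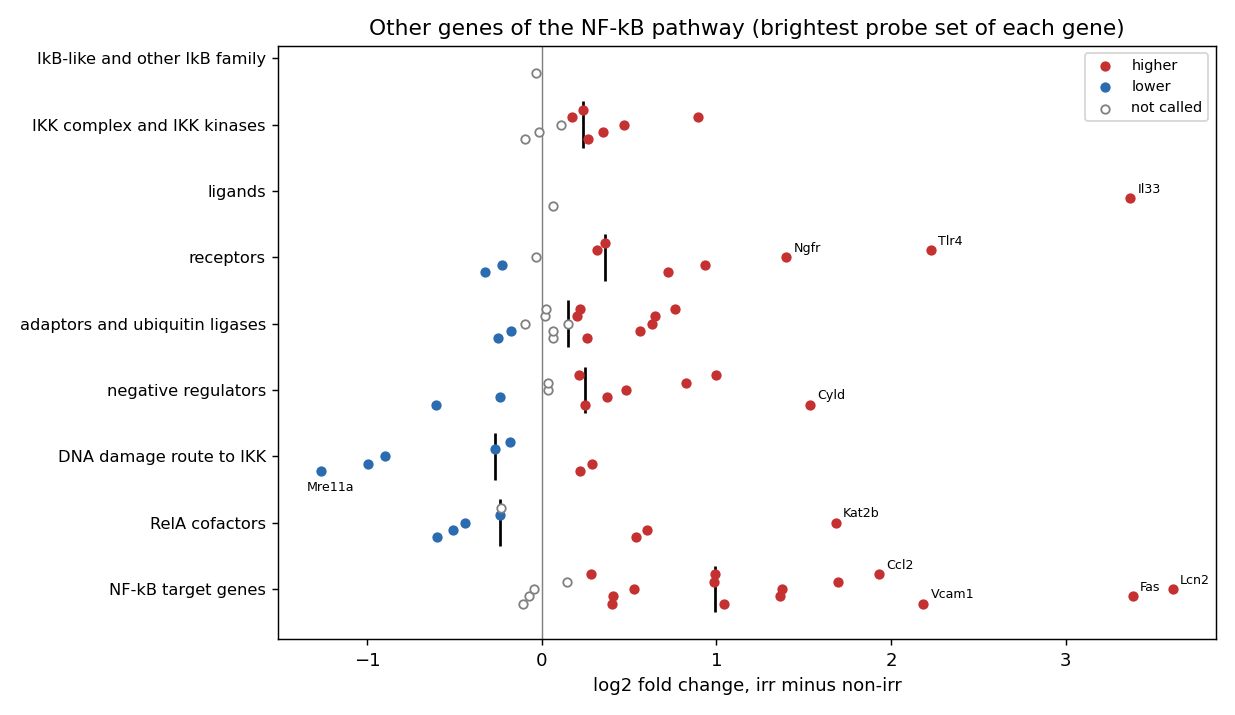
Log2 difference, irr minus non-irr (horizontal axis), of the tested genes in 9 lists of the NF-κB pathway (1 point per gene, higher in red, lower in blue, not called in open grey), with the median of each list of 3 or more tested genes as a vertical bar. The median of the NF-κB target genes is 0.99 over all 18 tested and 0.41 over the 12 that passed the filter in both groups (0.52 for the receptors by the latter count), and the lists of the DNA damage route and of RelA cofactors have medians below 0 (-0.27 and -0.24).

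The IKK complex and the kinases above it were the signaling step nearest to the inhibitors. Of 9 tested genes 6 were higher, none was lower, and the median was 0.23. Ikbkg, which codes for the scaffold subunit NEMO, read 8.67, 8.78, 8.76 and 8.75 on non-irr and 9.61, 9.62, 9.65 and 9.66 on irr arrays, without overlap. It was higher by 0.89 ± 0.04 (1.86-fold, adjusted p = 5.2e-08), although its 6 tested probe sets ranged from 0.09 to 0.89 and their mean was 0.49 (adjusted p = 8e-07). Tab3, a ubiquitin-binding adaptor of the kinase TAK1, was higher by 0.47 ± 0.09, and Tbk1, an IKK-related kinase, by 0.35 ± 0.04. Ikbkb, the catalytic kinase of the classical route, read 10.31 to 10.36 on non-irr and 10.07 to 10.29 on irr arrays. The groups did not overlap, but irr replicate 1 lay well below the rest, and the difference of -0.10 ± 0.06 was not called (adjusted p = 0.16). Map3k14, the kinase NIK of the alternative route, gave different answers by probe set, with 0.11 ± 0.06 and no call (adjusted p = 0.13) at the brightest and 0.83 at the other, and the mean of both was called higher (0.47, adjusted p = 9.3e-06). Chuk was not analysed here. Of the other IκB-like genes only Nfkbil1 (named after its values were seen) was tested, with a difference of -0.03 and no call, and Bcl3 lay under the filter (5.37 to 5.69 on non-irr and 5.08 to 5.31 on irr arrays).

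Ligands of both routes were mostly under the filter, 8 of 11. Tnf read 6.18 to 6.42 on non-irr and 6.09 to 6.25 on irr arrays, Il1b 5.72 to 5.96 and 5.60 to 5.78, and Il1a 3.60 to 4.13 and 3.60 to 3.79. The ligands tested were Il18, named here after its values were seen, which differed by 0.07 without a call, and Il33, an IL-1 family cytokine that is kept in the nucleus and released from damaged cells. Il33 read 6.05, 6.33, 6.61 and 6.36 on non-irr arrays, all under the intensity of 100, and 9.67, 9.70, 9.67 and 9.79 on irr arrays. The irr level was at least 8.37-fold higher, measured against that intensity. Il33 passed the filter through the irr arrays alone, so no p-value is given for it.

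Among the receptors 6 of 9 tested genes were higher and 2 lower, with a median of 0.37. Of the 6 higher genes 1 passed the filter only through the irr arrays, and of the 8 that passed in both groups 5 were higher, with a median of 0.52. Tlr4, the Toll-like receptor for bacterial lipopolysaccharide, read 7.02, 7.21, 7.44 and 7.09 on non-irr and 9.53, 9.52, 9.24 and 9.38 on irr arrays. It was 4.68-fold higher (2.23 ± 0.10, adjusted p = 3.1e-08), and its 3 tested probe sets all rose, by 1.64 or more. Ngfr, the neurotrophin receptor p75, was higher by 1.40 ± 0.11, Ltbr, the lymphotoxin receptor that feeds the alternative route, by 0.94 ± 0.07, and Tnfrsf1a, the main receptor of TNF, by 0.72 ± 0.05. Il1r1 lay under the filter, with 5.94 to 6.20 on non-irr and 6.30 to 6.35 on irr arrays.

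Among adaptors and ubiquitin ligases 7 of 15 tested genes were higher and 2 lower. Irak2, a kinase of the Toll-like and IL-1 receptor complex, was higher by 0.77 ± 0.07, and Birc2, a ubiquitin ligase of the TNF receptor complex, by 0.63 ± 0.05. Traf2, its partner there, fell by 0.25 ± 0.06 (adjusted p = 0.0022), or by 0.14 with reference gene centring (adjusted p = 0.04). Xiap was higher by 0.65 ± 0.09 at its brightest probe set, but its probe sets ranged down to -0.52 and their mean gave no call (0.004, adjusted p = 0.98).

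Negative regulators other than the members were higher in 7 of 11 and lower in 2 of 11 tested genes, with a median of 0.25. Cyld, which removes the ubiquitin chains that activate IKK, read 7.74, 7.96, 8.03 and 7.88 on non-irr and 9.53, 9.37, 9.41 and 9.45 on irr arrays. It was 2.90-fold higher (1.54 ± 0.07, adjusted p = 2.9e-08), and its 3 tested probe sets ranged from 1.08 to 2.12. Rnf11 and Tax1bp1, which act in a complex with A20, were higher by 1.00 ± 0.05 and 0.83 ± 0.07 (adjusted p of 7.1e-08 and 3.5e-06), with their least changed probe sets at 0.39 and 0.33.

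Most tested genes of the route from broken DNA to IKK moved the other way. Of 7 tested genes 5 were lower and 2 higher, with a median of -0.27. The higher genes, named after their values were seen, were Erc1 (0.29 at its brightest probe set, with its probe sets from -0.14 to 0.32) and Pidd1 (0.22). Mre11a, a sensor of DNA breaks, fell by 1.26 ± 0.06 (adjusted p = 4.6e-08), with 9.03 to 9.22 on non-irr and 7.78 to 7.97 on irr arrays, and differed by -0.43 at its other probe set. Parp1, which marks breaks with poly(ADP-ribose), fell by 1.00 ± 0.05 (adjusted p = 3.3e-08) and Usp10, a deubiquitinase, by 0.90 ± 0.04 (adjusted p = 6.3e-08). Atm, the kinase that binds NEMO in this route, fell by 0.27 ± 0.05 at its brightest probe set (adjusted p = 0.0011) and by 1.03 at the other. With arrays centred on reference genes the first of these was -0.16 (adjusted p = 0.036). These genes also serve DNA repair, and the values do not tell one role from the other.

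RelA cofactors were split. Kat2b and Ep300, acetyltransferases, were higher by 1.68 ± 0.06 and 0.60 ± 0.06 (adjusted p of 8.8e-09 and 5.3e-06), and Hdac1, a deacetylase, fell by 0.60 ± 0.06 (adjusted p = 6e-06). Of 8 tested genes 3 were higher and 4 lower.

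Textbook target genes of NF-κB were higher in 14 and lower in none of 18 tested genes, 8 of them at 2-fold or more, with a median of 0.99. Another 16 of the 36 lay under the filter on all arrays and 2 were not analysed here. As 6 of the 18 passed only through the irr arrays, the 12 that passed in both groups describe the list better, and of these 8 were higher, none was lower, and the median was 0.41. The list was not chosen for NF-κB alone, since Fas is also a target of p53, and Cxcl10, Tap1, H2-K1, Irf1 and Psmb9 also respond to interferon.

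Lcn2, the iron-binding protein lipocalin 2, read 4.21 to 4.56 on non-irr and 7.78 to 8.10 on irr arrays. It was at least 2.53-fold higher by the bound of the filter. Fas, the death receptor, read 5.19 to 5.46 on non-irr and 8.42 to 8.90 on irr arrays, at least 4.13-fold higher. Vcam1, an adhesion molecule of quiescent NSCs and inflamed endothelium, read 6.22 to 6.59 on non-irr and 8.43 to 8.66 on irr arrays. It was at least 3.69-fold higher at its brightest probe set, while its other probe set differed by 0.82 on the log2 scale. In each of these genes all non-irr arrays lay below the intensity of 100. They passed the filter through the irr arrays alone, so no p-value is given for them.

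Ccl2, the monocyte chemokine, was measured in both groups. It read 7.67, 7.43, 7.59 and 7.42 on non-irr and 9.38, 9.41, 9.55 and 9.48 on irr arrays, without overlap, and was 3.81-fold higher (1.93 ± 0.07, adjusted p = 6.5e-09). Other well-known targets did not pass the test or the filter. Il6 read 3.24 to 3.50 on non-irr and 3.46 to 4.01 on irr arrays and Icam1 4.54 to 4.75 and 4.58 to 4.79, both under the filter. Cxcl1, a neutrophil chemokine, differed by -0.11 ± 0.07 (adjusted p = 0.17) and Sod2, the mitochondrial superoxide dismutase, by -0.07 ± 0.06 (adjusted p = 0.26), neither of them called. Among the promoter entries, 12 of the 26 target genes with an entry held the κB consensus (46.2%), beside 5 of 7 members.

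**Figure D5:**
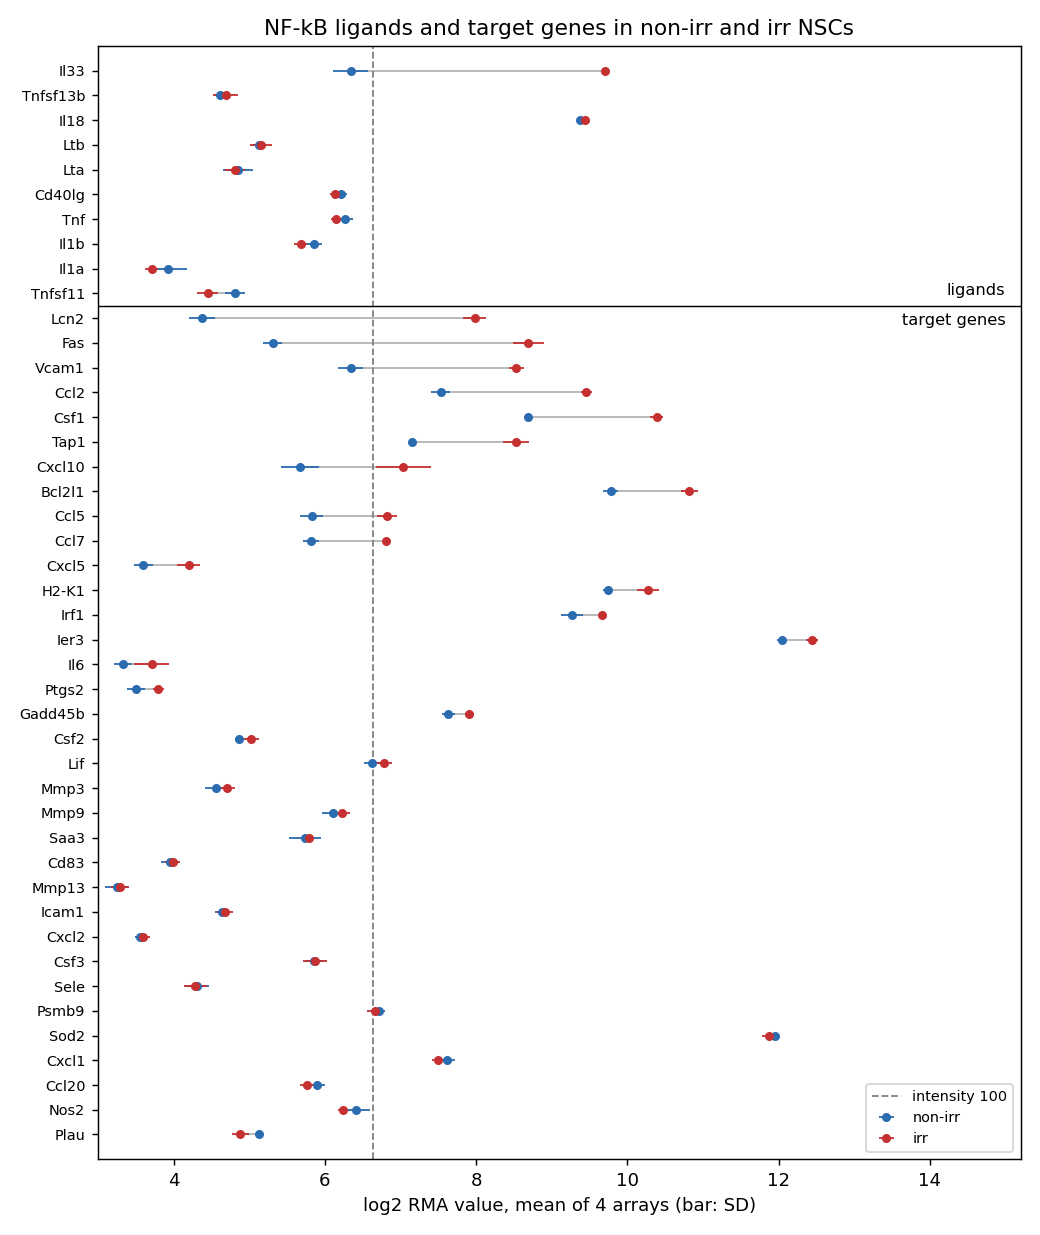
Mean log2 expression value of 4 arrays (points, bars SD) for each listed NF-κB ligand and target gene in non-irr (blue) and irr NSCs (red), with the intensity of 100 as a dashed line. Il33, Lcn2, Fas and Vcam1 cross the line to the right, Ccl2 moves from 7.53 to 9.46, and Tnf, Il1a, Il1b, Il6 and Icam1 stay left of it in both groups.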

How the data were processed

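The log2 expression values are those the authors deposited: intensities were read with GCOS and normalized with RMA, which corrects background, normalizes by quantiles and summarizes probes (versions not given in the sources used here). Detection calls were not used. Symbols came from the platform's annotation (34958 probe sets with 1 symbol, 932 with several, 9211 with none), and members were chosen by these. For gene counts and lists, 34754 of the single-symbol probe sets were matched to current RefSeq symbols through their gene identifier. Listed genes were also sought by RefSeq synonym. Probe sets over an intensity of 100 on at least 1 array were tested with limma 3.58.1 in R 4.3.3 (two-sided, Benjamini-Hochberg over all 21919), irr against non-irr, without covariates, and the procedure was also tested on simulated data. "At least" folds set the bright group's mean against the intensity of 100. Members and lists were chosen with earlier results of these data known. Named were all members, the 3 called genes of each list with the largest change, and Bcl3, Chuk, Ikbkb, Ikbkg, Map3k14, Tnf, Il1a, Il1b, Tnfrsf1a, Il1r1, Traf2, Cyld, Atm, Parp1, Il6, Ccl2, Cxcl1, Icam1 and Sod2. Alternatives varied the filter, scaling, variance model, replicates, probe sets and fold threshold. The number of arrays limits the precision. Figures were drawn with matplotlib 3.10.9.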

Additional observations from a re-analysis of the deposited data

Results flagged for a closer look

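In 2 of 38 groups of 4 arrays of the member probe sets, 1 array stood far from the other 3, where chance flags about 1 in 20 such groups. At Nfkbiz 1417483_at, irr replicate 2 read 8.54 and the other irr arrays 8.36 to 8.38. At Nfkbiz 1448728_a_at, under the filter, irr replicate 1 read 6.27 and the others 6.02 to 6.06. The call of Nfkbiz 1417483_at as higher did not depend on either array.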

How the results depend on the processing

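Calls of the members did not depend on any single array. With each array left out in turn, 11 member probe sets stayed higher (11 to 11) and 1 lower (1 to 1), and of the pathway genes 45 to 48 were higher and 14 to 16 lower. The same 11 members were also higher without a filter, with stricter filters, under 3 other scalings, with array weights, with a robust trended variance and without irr replicates 1 and 2 or 3 and 4 together, the first of which was added after seeing the data. No called value of a member or named gene changed sign. With the replicate block the counts were 11 and 1 for members and 47 and 15 for pathway genes. The labels do not tie equal numbers together, and the deviations of equal-numbered arrays correlated at -0.207 to 0.509.

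Counts moved with the filter, the scaling, the probe sets and the fold. Centring on reference genes gave 12 member probe sets higher and 1 lower and 53 and 10 pathway genes, median centring 46 and 16 and quantile normalization 45 and 17 pathway genes. Without a filter 2 member probe sets were lower, the second being Nfkbiz 1448728_a_at. With plain probe set identifiers only, which drop Rela and the _s_, _x_ and _a_ probe sets, 5 were higher and 0 lower. At 2-fold or more, the members gave 0 higher and 0 lower and the pathway genes 13 and 1. Tested against a 1.5-fold change, the members gave 2 higher (Relb and Nfkbiz) and 0 lower, and the pathway genes 20 and 3. Nfkbie 1431843_a_at was called higher with reference gene centring (0.24, adjusted p = 0.015) and without irr replicates 1 and 2 (0.22, adjusted p = 0.048). Cxcl1 was called lower without non-irr replicate 3 (-0.16, adjusted p = 0.035) and under a further quantile normalization (-0.18, adjusted p = 0.048), and Map3k14 higher without irr replicate 1 (0.15, adjusted p = 0.044) and with reference gene centring (0.22, adjusted p = 0.0058). Averaging the probe sets of each gene gave a call for Sod2 (-0.12, adjusted p = 0.029) and for Map3k14 (0.47, adjusted p = 9.3e-06). All other values of the named pathway genes kept their side of the threshold, except for Xiap when averaged and 9 genes in the test against 1.5-fold. The causes were not tested. Transcript levels do not measure protein or nuclear NF-κB, and probe sets near the intensity of 100 are measured least well.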
